A study of Mus musculus with 6 samples.

Results

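This account covers 9 genes of the neural cytoskeleton and of neural RNA binding in 3D gastruloids: Nes, Msi1, Dcx, Tubb3, Tubb2a, Tubb2b, Stmn1, Stmn2 and Tuba1a. They were chosen by symbol, with their response to budesonide already known, from the 53819 genes of the count table. All 9 passed the filter on low counts, as did 17155 genes in all. The gastruloids were three-dimensional aggregates of E14 mouse embryonic stem cells, and RNA was extracted from the aggregates. One group of 3 libraries came from aggregates given budesonide, a synthetic glucocorticoid, for 80 h, and the other group of 3 libraries from untreated aggregates. The labels give no dose or vehicle, no collection time for the untreated aggregates and no word on whether each replicate was its own culture. The p-values below therefore reflect the spread of the libraries in hand, part or all of which may be technical.

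Microtubules are polymers of dimers of an alpha-tubulin and a beta-tubulin, each encoded by several closely similar genes. Neurons are known to use particular tubulin genes, together with proteins that stabilise microtubules, such as doublecortin, or that bind free tubulin dimers, such as the stathmins. Neural progenitors before that step are known for the intermediate filament nestin and the RNA-binding protein Musashi. Most of these genes are also active outside the nervous system, for example nestin in muscle and vessel progenitors and Stmn1 in dividing cells of many kinds.

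Each library had between 5666168 and 7476862 counted reads. Levels are CPM, reads per library size with TMM scaling, on which 3 reads equal 0.422 to 0.552 CPM. Markers of naive stem cells summed to 1764 to 1953 CPM per library with budesonide and 1197 to 1255 CPM in untreated libraries, and those of the streak and tailbud to 11.4 to 16.2 CPM per library with budesonide and 272 to 294 CPM in untreated libraries. Of 1469 olfactory and vomeronasal receptor genes, taken as a background of genes with no known use in these cells, the 95th percentile lay between 1.83 and 2.21 CPM per library. Since whole aggregates were sequenced, fewer cells of a type and less RNA per cell cannot be told apart.

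RefSeq start sites (GRCm38.p6) matched 5 of the 9 genes. The 250 bases upstream of them are printed because they belong to a pair of genes that were lower with budesonide (Nes, Dcx), a pair that were higher (Tubb3, Tubb2a) and a gene whose groups overlapped (Tuba1a). Reads were mapped to GRCm39, per the submitters' processing notes, so the coordinates here are of GRCm38.p6 alone. The stretches lie at chr3:87970843-87971092 (plus strand) for Nes, chrX:143933220-143933469 (minus strand) for the upstream of the listed Dcx starts, chr8:123411303-123411552 (plus strand) for Tubb3, chr13:34078009-34078258 (minus strand) for Tubb2a and chr15:98953502-98953751 (minus strand) for Tuba1a. Each is written 5′ to 3′ on the strand of its gene, and capitals mark exact matches, on either strand, to the motifs named in the next paragraph.
Nes: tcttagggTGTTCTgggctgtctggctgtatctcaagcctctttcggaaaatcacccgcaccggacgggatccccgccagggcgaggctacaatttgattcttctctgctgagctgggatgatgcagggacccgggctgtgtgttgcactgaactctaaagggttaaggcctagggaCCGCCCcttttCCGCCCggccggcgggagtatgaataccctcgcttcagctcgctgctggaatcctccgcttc
Dcx: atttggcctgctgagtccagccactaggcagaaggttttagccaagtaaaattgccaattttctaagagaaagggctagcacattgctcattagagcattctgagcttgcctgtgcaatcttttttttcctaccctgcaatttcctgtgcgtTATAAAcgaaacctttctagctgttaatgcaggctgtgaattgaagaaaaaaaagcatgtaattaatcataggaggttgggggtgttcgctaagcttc
Tubb3: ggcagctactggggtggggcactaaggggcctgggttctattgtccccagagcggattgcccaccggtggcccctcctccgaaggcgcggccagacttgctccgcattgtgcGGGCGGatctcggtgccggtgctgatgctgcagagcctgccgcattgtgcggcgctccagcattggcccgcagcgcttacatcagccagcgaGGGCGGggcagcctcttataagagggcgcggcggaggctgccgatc
Tubb2a: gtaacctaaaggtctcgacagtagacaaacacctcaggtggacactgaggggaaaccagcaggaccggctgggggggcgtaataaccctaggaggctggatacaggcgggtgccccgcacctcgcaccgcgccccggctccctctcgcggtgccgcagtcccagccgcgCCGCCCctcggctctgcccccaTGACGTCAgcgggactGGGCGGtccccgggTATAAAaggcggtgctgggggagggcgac
Tuba1a: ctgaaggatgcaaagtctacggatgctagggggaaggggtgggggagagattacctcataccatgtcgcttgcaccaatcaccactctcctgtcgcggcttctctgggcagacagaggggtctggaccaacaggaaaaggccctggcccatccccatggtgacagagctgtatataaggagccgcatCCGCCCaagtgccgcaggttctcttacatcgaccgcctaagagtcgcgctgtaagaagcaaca

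The motifs searched were a TATA box (TATAAA), a GC box (GGGCGG), a cAMP response element (TGACGTCA), one arm of the glucocorticoid receptor site (AGAACA), a TCF/LEF site (ATCAAAG) and the left arm of the site of the repressor REST (TTCAGCACC). Both strands were searched, the cAMP response element is its own reverse complement, and no match overlapped another. The motifs were chosen after the sequences were seen. Nes held 2 GC boxes and 1 arm of the glucocorticoid receptor site, which lies 242 bases before the start. Tubb3 held 2 GC boxes. Tubb2a held 2 GC boxes, a cAMP response element and a TATA box 29 bases before the start. Dcx held a TATA box 98 bases before the printed start, and Tuba1a held 1 GC box. Of 32851 RefSeq promoters of the same length, 32.7% held the GC box, 16.1% the glucocorticoid receptor arm, 12.4% the TATA box, 3.21% the TCF/LEF site, 1.55% the cAMP response element and 0.301% the REST arm. The GC content was 68.0% for Tubb3, 68.4% for Tubb2a, 58.8% for Nes, 56.8% for Tuba1a and 41.6% for Dcx.

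Nes and Msi1 were lower with budesonide. Nes, the nestin filament of neural progenitors, was at 37.9, 34.0 and 36.2 CPM in budesonide libraries, against 137, 129 and 127 CPM in untreated libraries. The groups lay far apart, and Nes was 3.63-fold lower (log2 fold change -1.86 ± 0.08, SE). Msi1, an RNA-binding protein that restrains translation of differentiation messages in progenitors, was at 9.44, 6.47 and 7.91 CPM in budesonide libraries, against 30.3, 31.1 and 28.1 CPM in untreated libraries. Again no library of one group reached the other, and Msi1 was 3.75-fold lower (log2 fold change -1.91 ± 0.14, SE). A log2 fold change below that of Nes was found in 0.426% of the genes tested, and one below that of Msi1 in 0.391%.

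Dcx, the doublecortin of young migrating neurons, had the fewest reads of the 9. It had 12, 9 and 16 reads (1.69, 1.32 and 2.94 CPM) in budesonide libraries, against 33, 31 and 38 reads (5.03, 4.36 and 5.97 CPM) in untreated libraries. The groups did not overlap, budesonide replicate 3 was the highest of its group, and the log2 fold change was -1.40 ± 0.31 (SE). Per kb of transcript, Dcx was at 0.219 ± 0.0934 CPM with budesonide and 0.564 ± 0.0892 CPM in untreated libraries (SD, n = 3 each). Of the receptor genes with a known length, 22.1% had a higher level per kb than Dcx with budesonide and 2.31% in untreated libraries. By CPM, 3.88% of all receptor genes were higher than Dcx with budesonide and 0.0681% in untreated libraries. Its budesonide level thus lay among those of the background genes per kb, and near their upper end by CPM.

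The 3 beta-tubulins among the 9 genes, Tubb3, Tubb2a and Tubb2b, were higher with budesonide. Tubb3, widely used as a marker of neurons, was at 13.9, 13.1 and 10.8 CPM in budesonide libraries, against 6.86, 5.20 and 5.50 CPM in untreated libraries. These values rest on 99, 89 and 59 reads with budesonide and 45, 37 and 35 reads in untreated libraries, and Tubb3 was 2.17-fold higher without overlap (log2 fold change 1.12 ± 0.18, SE). Tubb2b, abundant in developing brain, was at 72.0, 63.7 and 75.4 CPM in budesonide libraries, against 41.2, 41.2 and 40.7 CPM in untreated libraries. Its untreated libraries were nearly equal, with a coefficient of variation of 0.685%, against 8.52% among budesonide libraries. Tubb2b was 1.71-fold higher (log2 fold change 0.78 ± 0.08, SE).

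Tubb2a, whose sequence is close to that of Tubb2b, was at 11.97, 8.98 and 10.7 CPM in budesonide libraries, against 6.40, 6.61 and 5.81 CPM in untreated libraries. The groups did not overlap, and Tubb2a was 1.68-fold higher (log2 fold change 0.75 ± 0.19, SE). Reads may be split wrongly between such copies, and the pair summed into 1 feature gave a log2 fold change of 0.77 ± 0.08 (SE). The ratio of Tubb2b to Tubb2a reads was 6.73 ± 0.619 with budesonide and 6.55 ± 0.398 in untreated libraries (SD, n = 3 each), a difference smaller than the spread.

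Stmn2, a stathmin of growing axon tips, was at 109, 98.7 and 106 CPM in budesonide libraries, against 57.5, 55.5 and 64.4 CPM in untreated libraries. All budesonide libraries lay above all untreated ones, and Stmn2 was 1.77-fold higher (log2 fold change 0.83 ± 0.07, SE). Stmn1, the widely expressed stathmin, was at 168, 136 and 158 CPM in budesonide libraries, against 148, 114 and 135 CPM in untreated libraries. Here the groups overlapped (log2 fold change 0.22 ± 0.09, SE, 95% interval 0.05 to 0.38). The ratio of Stmn2 to Stmn1 reads was 0.685 ± 0.0394 with budesonide and 0.451 ± 0.0537 in untreated libraries (SD, n = 3 each), and the groups did not overlap.

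Tuba1a, an alpha-tubulin of newborn neurons, was at 57.5, 70.8 and 59.8 CPM in budesonide libraries, against 59.9, 52.6 and 50.3 CPM in untreated libraries. Its groups overlapped as well (log2 fold change 0.21 ± 0.09, SE, 95% interval 0.04 to 0.38). Summed over the 9 genes, the level was 433 to 481 CPM per library with budesonide and 439.7 to 492 CPM in untreated libraries, so the sums overlapped while single genes differed in both directions.

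**Figure D1:**
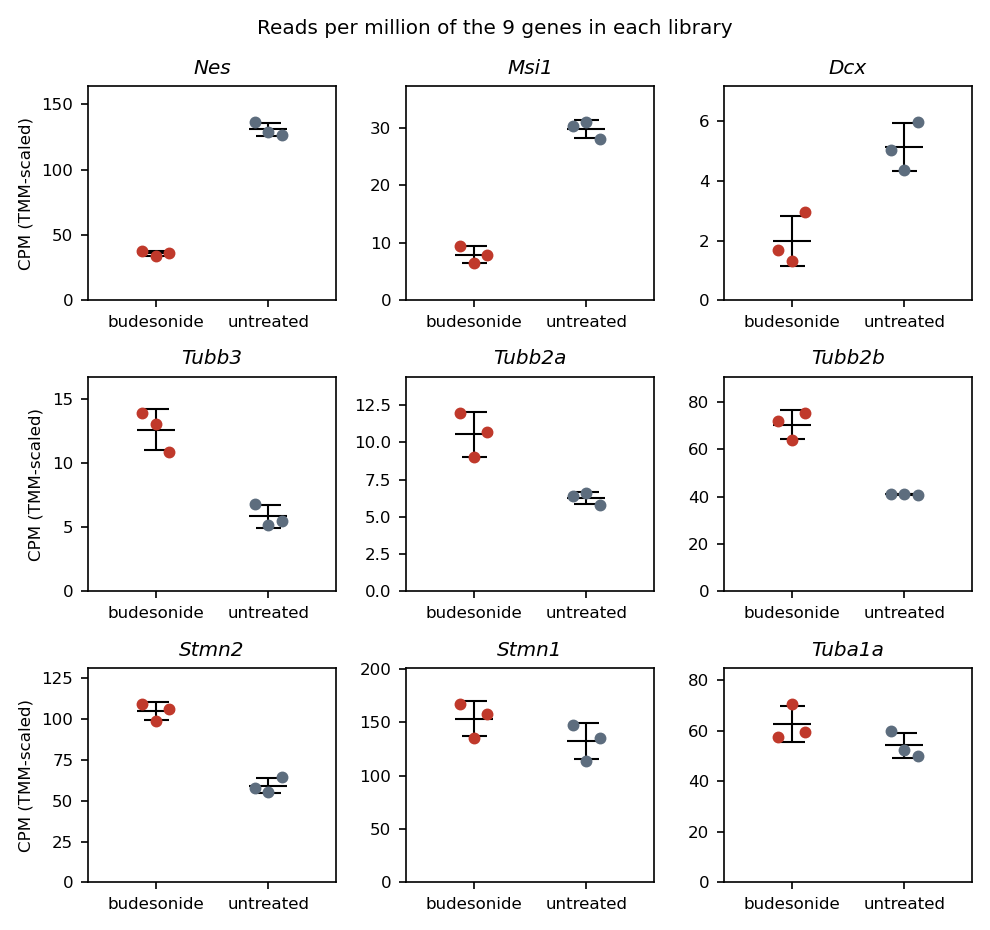
Points are single libraries and bars the mean ± SD (n = 3 per group) of TMM-scaled CPM, with each gene on its own axis starting at 0. Nes, Msi1 and Dcx lie lower with budesonide, Tubb3, Tubb2a, Tubb2b and Stmn2 lie higher, and the groups overlap for Stmn1 and Tuba1a.

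In the fit over all genes, 4 of the 9 were past the threshold as higher (Tubb3, Tubb2a, Tubb2b and Stmn2) and 3 as lower (Nes, Msi1 and Dcx), by edgeR's quasi-likelihood test with a Benjamini-Hochberg adjusted p under 0.05. Of all genes tested 28.7% were past it, 15.2% as higher and 13.5% as lower. The groups did not overlap for 7 of the 9 genes, and for 39.6% of all genes tested, with 19.8% higher and 19.8% lower. The 9 were chosen with this contrast known, so their counts are a description. With no scaling factors 38.6% of all called genes were higher, against 52.9% with TMM scaling, and the 9 genes split 4 and 3 either way. The median log2 fold change was 0.22 over the 9 genes and -0.02 over all genes tested. Stmn1 and Tuba1a each passed as higher in 4 of the 14 alternatives to this fit that kept similar genes apart.

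Per kb of transcript the 9 genes spanned a wide range, and their order differed between the groups. With budesonide, Stmn1 was first at 145 ± 15.4 CPM per kb, followed by Stmn2 at 50.5 ± 2.60, Tuba1a at 34.8 ± 3.95 and Tubb2b at 32.2 ± 2.75 CPM per kb. Next came Tubb3 at 6.76 ± 0.858, Tubb2a at 6.55 ± 0.934, Nes at 5.88 ± 0.320 and Msi1 at 2.53 ± 0.473 CPM per kb, with Dcx last. In untreated libraries, Stmn1 at 125 ± 16.1 CPM per kb was followed by Tuba1a at 30.1 ± 2.79, Stmn2 at 28.5 ± 2.25, Nes at 21.4 ± 0.850 and Tubb2b at 18.8 ± 0.129 CPM per kb. Msi1 at 9.53 ± 0.490, Tubb2a at 3.90 ± 0.256 and Tubb3 at 3.13 ± 0.473 CPM per kb came before Dcx (all mean ± SD, n = 3).

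Nes was thus the seventh of the 9 with budesonide and the fourth in untreated libraries. Neighbours in the order whose libraries overlapped were Tuba1a with Tubb2b, Tubb3 with Tubb2a and Tubb2a with Nes in the budesonide group, and Tuba1a with Stmn2 and Tubb2a with Tubb3 in untreated libraries. Lengths are those of the longest coding transcript in GENCODE M21. With the union of all exons as the length, Stmn2 was at 18.7 CPM per kb with budesonide and 10.6 CPM per kb in untreated libraries. On that length Tuba1a at 34.8 and Tubb2b at 30.7 CPM per kb lay above Stmn2 with budesonide. In untreated libraries Nes at 20.4 and Tubb2b at 17.9 CPM per kb lay above it. The place of Stmn2, and those of the genes that passed it, thus rest on the transcript chosen.

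**Figure D2:**
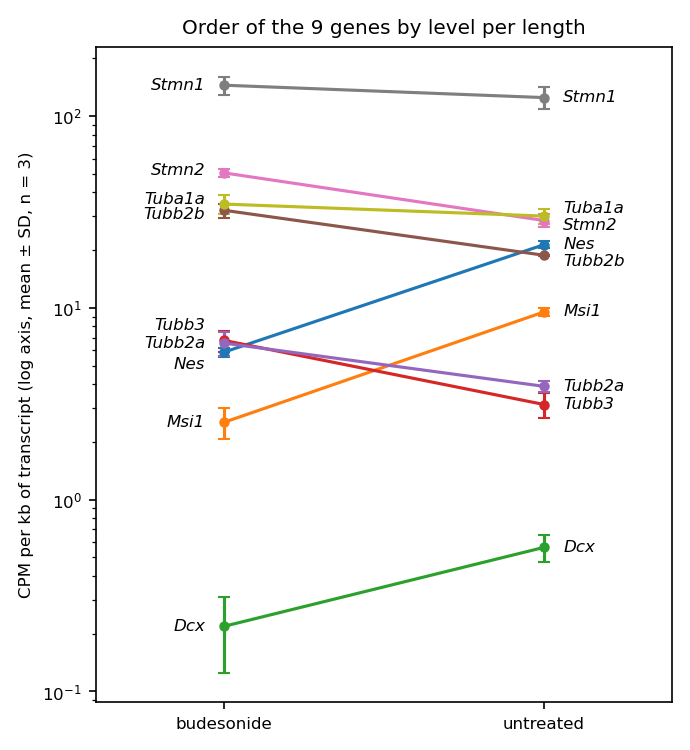
Points are the mean CPM per kb of the longest coding transcript on a log axis, bars the SD (n = 3 per group), and lines join the groups for each gene. Nes lies beside the rarer beta-tubulins with budesonide and above Tubb2b in untreated libraries.

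Relatives of these genes did not all change in the same direction. A fixed set of relatives was named whatever their values, and Tuba4a was added because it passed the test. Msi2, the other Musashi gene, rose to 187 ± 15.3 CPM with budesonide, against 159.9 ± 11.7 CPM in untreated libraries (log2 fold change 0.23 ± 0.07, SE, edgeR adjusted p = 0.00610). Its groups overlapped, with budesonide replicate 3 at 169.5 CPM and untreated replicate 3 at 171.4 CPM. Msi2 did not pass with no scaling factors (adjusted p = 0.0693, range over the alternatives 0.000618 to 0.0693). The ratio of Msi1 to Msi2 reads was 0.0428 ± 0.00899 with budesonide and 0.188 ± 0.0212 in untreated libraries (SD, n = 3 each). Dclk1, a kinase with doublecortin domains, fell to 6.59 ± 1.74 CPM, against 13.1 ± 2.47 CPM in untreated libraries (log2 fold change -0.97 ± 0.19, SE, edgeR adjusted p = 5.60e-05). Its relative Dclk2 was at 30.9 ± 0.388 CPM with budesonide and 26.9 ± 1.65 CPM in untreated libraries (edgeR adjusted p = 0.161). Dclk2 passed as higher with an offset for GC content and length (adjusted p = 0.0268, range 0.0268 to 0.474). Stmn3, a neuronal stathmin, was at 6.65 ± 0.974 CPM with budesonide and 6.06 ± 1.07 CPM in untreated libraries (edgeR adjusted p = 0.684), and Stmn4 had too few reads for a test.

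The main beta-tubulins of these cells did not pass the test. Tubb5 was at 1201 ± 120.4 CPM with budesonide and 1314 ± 115 CPM in untreated libraries (log2 fold change -0.13 ± 0.07, SE, edgeR adjusted p = 0.158). It passed as lower with upper quartile scaling (adjusted p = 0.0203), no scaling factors (0.0292) and no filter on low counts (0.0345), within a range of 0.0203 to 0.711. Tubb4b was at 607 ± 41.6 CPM with budesonide and 555 ± 17.1 CPM in untreated libraries (log2 fold change 0.13 ± 0.06, SE, edgeR adjusted p = 0.0764). It passed as higher with the GC and length offset (adjusted p = 0.0244), without budesonide replicate 2 (0.00269) and without untreated replicate 1 (0.0253), within a range of 0.00269 to 0.509.

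A pair of less abundant beta-tubulins fell. Tubb6 was at 91.0 ± 4.59 CPM with budesonide, against 121 ± 3.57 CPM in untreated libraries (log2 fold change -0.42 ± 0.07, SE, edgeR adjusted p = 2.37e-06). Tubb4a, known as a brain isotype, was at 1.79 ± 0.297 CPM with budesonide, near the background by CPM, against 3.82 ± 0.675 CPM in untreated libraries (log2 fold change -1.07 ± 0.33, SE, edgeR adjusted p = 0.0107). Per kb, Tubb4a with budesonide was at 0.802 ± 0.133 CPM. The 95th percentile of the receptor genes in budesonide libraries was lower, at 0.426 to 0.553 CPM per kb. The Tubb4a call was lost without untreated replicate 3 (adjusted p = 0.0788, range 0.00628 to 0.0788).

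Among alpha-tubulins, Tuba4a rose to 108 ± 2.98 CPM with budesonide, against 70.4 ± 1.16 CPM in untreated libraries (log2 fold change 0.62 ± 0.07, SE, edgeR adjusted p = 4.69e-10). Tuba1b, the widely expressed copy closest to Tuba1a, fell to 137 ± 5.79 CPM, against 161 ± 6.93 CPM in untreated libraries (log2 fold change -0.23 ± 0.06, SE, edgeR adjusted p = 0.00399). That call was lost without untreated replicate 2 (adjusted p = 0.0659) and with Tuba1a, Tuba1b and Tuba1c summed (log2 fold change -0.06 ± 0.06, SE, adjusted p = 0.496), within a range of 7.87e-05 to 0.496. The sign of the sum is opposite to that of Tuba1a alone. Tuba1c was at 62.1 ± 1.71 CPM with budesonide and 57.9 ± 1.31 CPM in untreated libraries (edgeR adjusted p = 0.364).

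**Figure D3:**
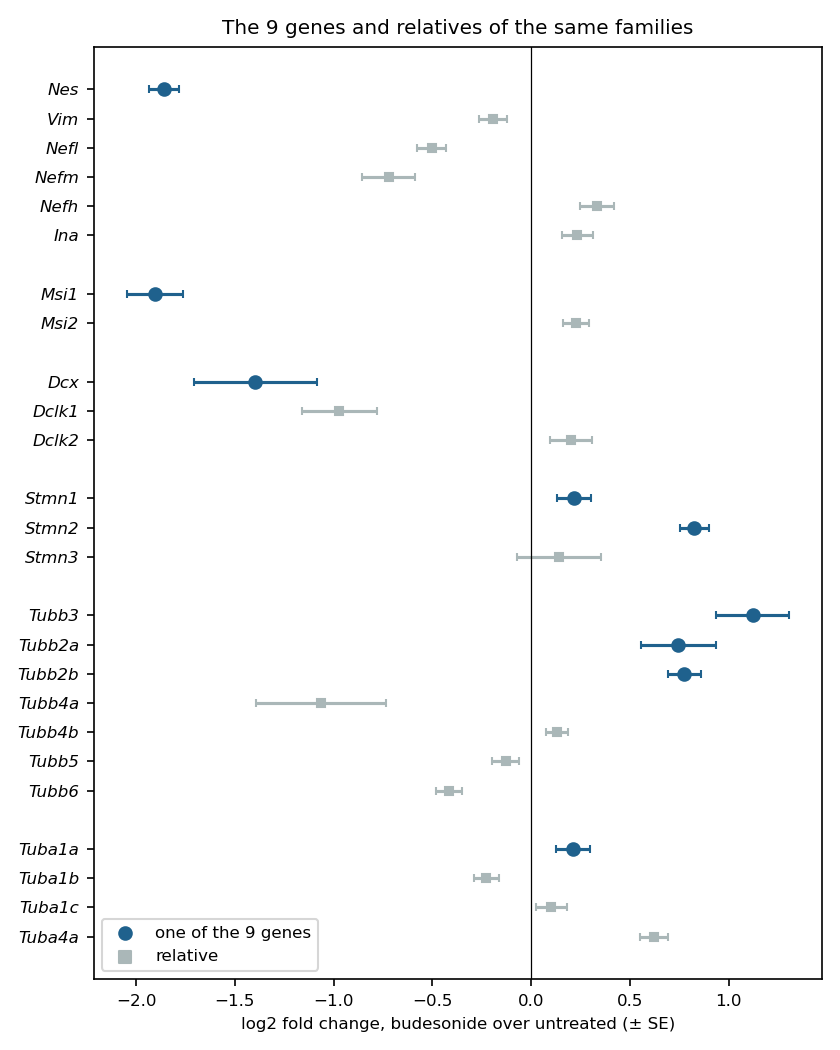
Points are log2 fold changes of budesonide over untreated with bars of ± 1 SE, for the 9 genes (circles) and relatives of the same families (squares). Msi2 lies above 0 and Msi1 below it, and Tubb6 and Tubb4a lie below 0 while Tubb3, Tubb2a and Tubb2b lie above it.

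As a share of the summed beta-tubulin level per kb, Tubb2b, Tubb3 and Tubb2a were small. Tubb2b made up 3.46 ± 0.0873% with budesonide and 2.003 ± 0.111% in untreated libraries (SD, n = 3 each). For Tubb3 the shares were 0.730 ± 0.120% with budesonide and 0.332 ± 0.0304% in untreated libraries, and for Tubb2a 0.700 ± 0.0531% with budesonide and 0.415 ± 0.0366% in untreated libraries. Most of the pool was Tubb5, with 48.6 ± 0.974% under budesonide and 52.7 ± 1.67% in untreated libraries, and Tubb4b, with 40.8 ± 0.556% under budesonide and 37.0 ± 1.14% in untreated libraries. In the alpha-tubulin pool, Tuba1a made up 18.4 ± 1.88% with budesonide and 16.6 ± 1.45% in untreated libraries, a difference about as large as the SD.

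**Figure D4:**
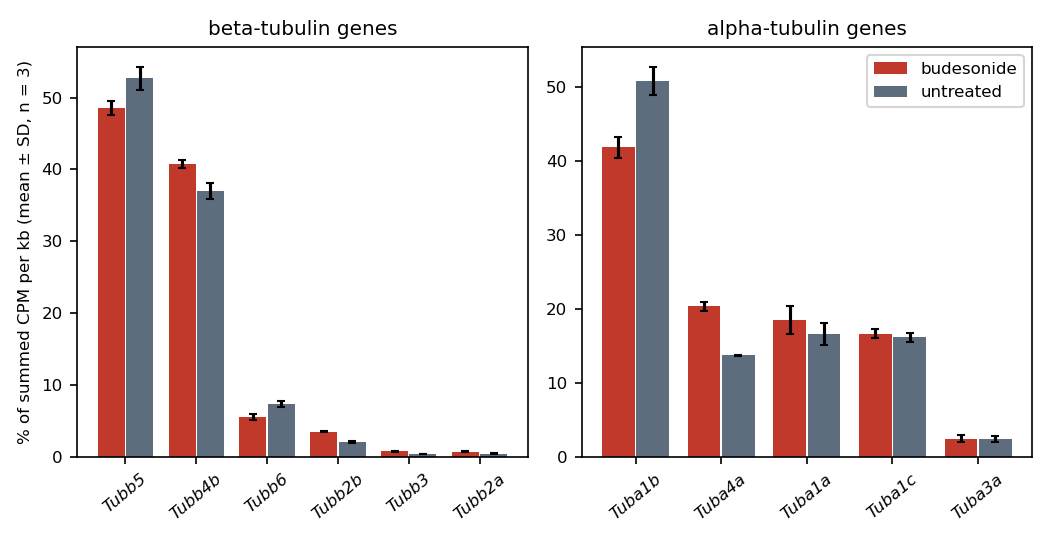
Bars are the share of each gene in the summed CPM per kb of the beta-tubulin (left) or alpha-tubulin (right) genes, as mean ± SD (n = 3 per group). Tubb5 and Tubb4b make up most of the beta-tubulin pool in both groups, and Tubb2b, Tubb3 and Tubb2a are small parts of it.

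The rest of this biology was counted in 10 lists that hold none of the 9 genes. Of 210 listed genes 177 were tested, and 26 rose and 47 fell, 41.2% of those tested, against 28.7% of all genes tested, with a median log2 fold change of -0.16. With no scaling factors 19 rose and 57 fell. By list, 36.4% of tubulins, 28% of tubulin folding or modification genes and 45.2% of microtubule-associated proteins and stathmins were past the threshold. The shares were 58.3% for intermediate filaments, 50% for RNA-binding proteins, 58.8% for growth cone and axon genes and 70% for progenitor regulators. They were 26.7% for proneural and neuronal regulators, 21.1% for synapse genes and 30.8% for the REST machinery. Of 11 tubulins tested 1 rose and 3 fell, all described above (median -0.13), and 2 rose with the offset for GC and length, or without budesonide replicate 2 or untreated replicate 1. Of 25 genes for the folding or modification of tubulin 4 rose and 3 fell (median -0.08), with 2 risen and 6 fallen under upper quartile scaling or no scaling factors, and 2 risen with DESeq2, with no filter or without untreated replicate 2. Log2 fold changes were 0.71 ± 0.09 for the tubulin cofactor relative Tbcel, 0.36 ± 0.07 for the tubulin deacetylase Hdac6, -0.42 ± 0.06 for the glutamylase Ttll4 and -0.72 ± 0.18 for the detyrosinating enzyme Vash2 (SE, edgeR adjusted p = 1.98e-08, 0.000189, 3.85e-07 and 0.00123 in that order).

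Microtubule-associated proteins and stathmins split, with 6 risen and 8 fallen of 31 tested (median log2 fold change -0.02). Map1a, an axonal and dendritic microtubule protein, rose to 199 ± 12.9 CPM with budesonide, against 124 ± 5.40 CPM in untreated libraries, and its relative Map1b rose to 843 ± 34.2 CPM, against 589.8 ± 11.99 CPM in untreated libraries. Dpysl5 and Dpysl2, collapsin response mediators that act in axon growth, fell. Dpysl5 was at 10.2 ± 1.48 CPM with budesonide and 28.3 ± 2.33 CPM in untreated libraries, and Dpysl2 at 20.0 ± 1.17 CPM with budesonide and 36.0 ± 3.65 CPM in untreated libraries.

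Of 12 intermediate filament genes tested 2 rose and 5 fell (median log2 fold change -0.19), but 3 fell with DESeq2, with the offset for GC and length, or without budesonide replicate 1, untreated replicate 1 or untreated replicate 2. Only 1 rose with upper quartile scaling, no scaling factors, DESeq2, no filter or without untreated replicate 2. The neurofilament genes went both ways. Nefl fell to 69.8 ± 4.81 CPM with budesonide, against 99.1 ± 7.91 CPM in untreated libraries, and Nefm to 13.0 ± 1.49 CPM, against 21.5 ± 0.981 CPM in untreated libraries, whereas Nefh rose to 60.1 ± 4.69 CPM, against 47.6 ± 3.39 CPM in untreated libraries. Ina, the alpha-internexin of young neurons, rose (log2 fold change 0.23 ± 0.08, SE, edgeR adjusted p = 0.0163), but the call was lost in 6 of the 15 alternatives (adjusted p range 0.000618 to 0.128). Vim, the vimentin with which nestin assembles, was at 125 ± 17.5 CPM with budesonide and 143 ± 1.88 CPM in untreated libraries (edgeR adjusted p = 0.0359, lost in 8 of the alternatives, range 0.000659 to 0.322). The ratio of Nes to Vim reads was 0.290 ± 0.0362 with budesonide and 0.917 ± 0.0263 in untreated libraries (SD, n = 3 each), far outside the spread.

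Of 24 neural RNA-binding proteins tested 4 rose and 8 fell (median log2 fold change -0.19), but 4 fell with DESeq2 or without budesonide replicate 1, and 5 with the GC and length offset or without budesonide replicate 2, budesonide replicate 3 or untreated replicate 2. With no scaling factors 2 rose. The splicing regulator Mbnl2 rose to 72.7 ± 1.82 CPM with budesonide, against 36.5 ± 2.33 CPM in untreated libraries, and Fxr1, of the fragile X family, had a log2 fold change of 0.37 ± 0.06 (SE). Ptbp2, the neural polypyrimidine tract binding protein, fell to 75.2 ± 5.94 CPM, against 97.1 ± 4.01 CPM in untreated libraries. Rbfox3, which encodes the neuronal marker NeuN, fell to 1.97 ± 0.180 CPM, near the background by CPM, against 4.65 ± 0.477 CPM in untreated libraries. Per kb, Rbfox3 with budesonide was at 0.624 ± 0.0572 CPM. That is above the 0.426 to 0.553 CPM per kb at which the receptor genes had their 95th percentile in budesonide libraries.

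Of 17 growth cone and axon genes, all tested, 2 rose and 8 fell (median log2 fold change -0.58), and the list summed to 746 to 829 CPM per library with budesonide and 1075 to 1160.0 CPM in untreated libraries. The neuronal adhesion molecule Nrcam fell to 13.9 ± 1.81 CPM with budesonide, against 49.8 ± 5.82 CPM in untreated libraries (log2 fold change -1.82 ± 0.12, SE, edgeR adjusted p = 1.71e-17). The actin-binding drebrin, Dbn1, fell to 26.4 ± 3.11 CPM, against 70.9 ± 1.31 CPM in untreated libraries. Basp1, a membrane protein of growth cones, rose to 168 ± 19.0 CPM, against 109.6 ± 6.95 CPM in untreated libraries, and the guidance receptor Robo1 to 77.8 ± 0.206 CPM, against 62.3 ± 2.68 CPM in untreated libraries.

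Of 22 neural progenitor regulators 10 were tested, of which 2 rose and 5 fell (median log2 fold change -0.63), with 3 fallen without budesonide replicate 3. The list summed to 341 to 345 CPM per library with budesonide and 276.5 to 282.5 CPM in untreated libraries. The largest part of that sum was Sox2 in both groups. Sox2, shared by stem cells and neural progenitors, rose to 259 ± 6.71 CPM with budesonide, against 140.0 ± 4.48 CPM in untreated libraries. Pax6, a patterning factor of the neural tube, rose to 16.9 ± 1.94 CPM, against 9.48 ± 0.803 CPM in untreated libraries. Sox3, a neural relative of Sox2, fell to 6.82 ± 1.58 CPM, against 26.8 ± 1.41 CPM in untreated libraries, and the progenitor surface protein Prom1 to 26.2 ± 2.74 CPM, against 51.7 ± 4.12 CPM in untreated libraries. Sox1, which marks the neural plate, was at 0.921 ± 0.349 CPM with budesonide and 1.68 ± 0.833 CPM in untreated libraries, within the background and too low to test.

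Of 25 proneural and neuronal regulators 15 were tested, of which 1 rose and 3 fell (median log2 fold change -0.23), with 2 risen without untreated replicate 2. Neurod1, a neuronal differentiation factor, rose to 12.2 ± 0.295 CPM with budesonide, against 7.10 ± 1.04 CPM in untreated libraries. Sox11, a factor of immature neurons, fell to 46.4 ± 3.49 CPM, against 125 ± 3.40 CPM in untreated libraries, and Lhx1 to 0.731 ± 0.490 CPM, within the background, against 3.21 ± 0.621 CPM in untreated libraries. The neuronal determination factor Neurog2 was at 0.157 ± 0.0232 CPM with budesonide and 0.304 ± 0.159 CPM in untreated libraries, under the level of 3 reads.

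Of 19 synapse and neuronal function genes tested 2 rose and 2 fell (median log2 fold change 0.08), 21.1% in all. The log2 fold changes were 0.85 ± 0.15 for the vesicle protein Syn1 and 0.70 ± 0.10 for the neuronal hydrolase Uchl1, against -0.92 ± 0.14 for the postsynaptic scaffold Dlg4 (SE). Of 13 genes of the machinery of REST, which represses neuronal genes outside neurons, 2 rose and 2 fell (median -0.01), with 4 fallen under upper quartile scaling or no scaling factors and 1 with the GC and length offset. Rest itself rose to 415 ± 17.9 CPM with budesonide, against 334 ± 10.7 CPM in untreated libraries, and the demethylase Kdm1a had a log2 fold change of 0.30 ± 0.06 (SE). The phosphatase gene Ctdspl fell to 2.16 ± 0.842 CPM, near the background, against 5.15 ± 0.360 CPM in untreated libraries (log2 fold change -1.21 ± 0.30, SE). The corepressor Rcor2 fell too (log2 fold change -0.24 ± 0.06, SE, edgeR adjusted p = 0.00251), a call lost with the GC and length offset (adjusted p = 0.436, range 5.18e-05 to 0.436).

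**Figure D5:**
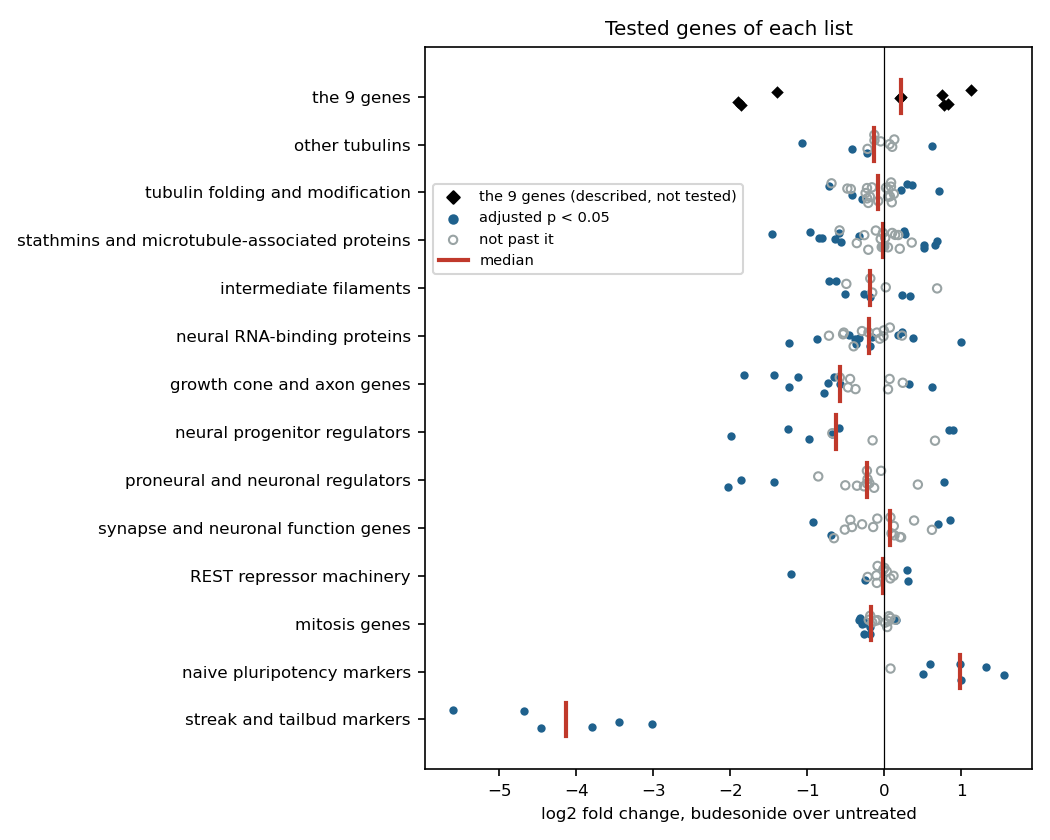
Points are tested genes at their log2 fold change of budesonide over untreated, by list, with filled points past an adjusted p of 0.05, and red bars mark medians. The 9 genes (diamonds) lie on both sides of 0, the growth cone and axon genes have a median of -0.58, and the streak and tailbud markers one of -4.13.

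Markers of cells that can share these genes are given beside them, and their part in the results was not tested. Mitosis genes summed to 4170.0 to 4408 CPM per library with budesonide and 4629 to 4703 CPM in untreated libraries, and of 20 tested 1 rose and 8 fell, or 13 fell with no scaling factors. The share called was 45% of these mitosis genes, against 28.7% of all genes tested. Mki67 and Kif20a, genes of dividing cells, had log2 fold changes of -0.27 ± 0.05 and -0.32 ± 0.06 (SE), and the one that rose, Kif11, lost its call in 10 of the 15 alternatives (adjusted p range 0.0243 to 0.335). Somite and muscle markers summed to 38.1 to 40.6 CPM per library with budesonide and 30.5 to 36.0 CPM in untreated libraries, with 2 of 9 tested. Of these Tcf15, most of the sum in both groups, rose to 30.4 CPM with budesonide, against 21.3 CPM in untreated libraries (log2 fold change 0.51 ± 0.11, SE). Des fell (log2 fold change -0.62 ± 0.22, SE), while the muscle factor Myog was at 0.237 ± 0.292 CPM with budesonide and 0.344 ± 0.312 CPM in untreated libraries.

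Endothelial markers summed to 113 to 121 CPM per library with budesonide and 58.9 to 66.0 CPM in untreated libraries. Pecam1 alone was at 81.8 CPM with budesonide and 27.7 CPM in untreated libraries. Of 6 tested Pecam1, also known from naive stem cells, and Tek rose and none fell (1 fell with no filter on low counts), with the endothelial cadherin Cdh5 at 2.61 ± 0.715 CPM with budesonide and 3.03 ± 0.902 CPM in untreated libraries. Neural crest markers summed to 49.1 to 55.0 CPM per library with budesonide and 50.3 to 57.0 CPM in untreated libraries, and of 6 tested 1 rose (Foxd3) and 3 fell, Ets1 and Erbb3 among them. Glial markers summed to 49.5 to 54.6 CPM per library with budesonide and 51.4 to 61.6 CPM in untreated libraries, and of 6 tested Aldh1l1 rose and Slc1a3 fell. No gene of these lists was at 0 reads in every library. Called were 33.3% of endothelial, 66.7% of neural crest and 33.3% of glial markers tested, against 28.7% of all genes tested. Calls for Des and Tek were lost in 5 and 8 of the alternatives, the fit without budesonide replicate 1 among them. With DESeq2, or without that library, untreated replicate 1 or untreated replicate 3, 1 crest marker fell.

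By the shape of log2 CPM over the 6 libraries, the genes most like Nes were Lefty1, Mdk and Gbx2, with Pearson's r of 0.9998, 0.9994 and 0.9992. Those most like Tubb3 were Mir291a, Bcas2 and Arhgef28, with r of 0.998, 0.9977 and 0.9975. Those most like Dcx were Grwd1, Zdhhc3 and Med12l, with r of 0.9975, 0.9956 and 0.9952. Of 11083 genes compared, 713 had an r over 0.95 with Nes and 462 with Tubb3, and of 11084 compared 205 had one with Dcx. The libraries share groups and depth, so these values describe similar profiles and nothing more.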

How the data were processed

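Stranded mRNA libraries were made from 3 budesonide and 3 untreated gastruloid samples, as the labels' protocols state. Tools credited to the submitters' processing notes are bcl2fastq, cutadapt 2.5, STAR 2.7.5c, featureCounts 2.0 and DESeq2, with build GRCm39. Neither annotation version nor strand setting is given in the sources used here, so overlapping and antisense genes cannot be told apart. The authors deposited raw counts by gene symbol, with 1 column per library mapped to its sample by name. The deposited normalized table was not used.

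All tests used edgeR 4.0.16 in R 4.3.3: filterByExpr with a minimum count of 10 and a minimum total of 15, TMM scaling, robust quasi-likelihood fits on treatment alone, and a threshold of 0.05 after Benjamini-Hochberg adjustment over all genes. Log2 fold changes are budesonide over untreated, with standard errors derived from the F statistic, and a mean ± SD is of TMM-scaled CPM. Between libraries of a group the fitted coefficient of variation was 5.73% and the chi-square 1.40 to 2.67 per gene, so none agreed within counting noise. The fit was tested on simulated data.

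The members and lists were chosen with earlier results of these data known. Named were the 9 members and a fixed set of their paralogs, whatever their values. At most 2 higher and 2 lower called genes were added per list, by smallest adjusted p among those averaging 1 CPM or more. The 3 genes best correlated with Nes, Tubb3 and Dcx, at 5 CPM or more, were added. Vim, Sox1, Neurog2, Myog, Cdh5 and Erbb3 were named after their values were seen, and some genes that the rule names are not reported here. Alternatives changed the scaling, the filter, the test (DESeq2 1.42.0) and the covariates, summed similar tubulins and left out each library. An offset for GC content and transcript length, with a value for 97.3% of tested genes, was chosen after seeing the data. Promoter sequences are from RefSeq (GRCm38.p6).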

Additional observations from a re-analysis of the deposited data

How the results depend on the processing

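The counts of genes past the threshold stayed within 1.5 times over the 14 alternatives that kept similar tubulins apart, for all genes tested, the 9 genes and the 10 neural and cytoskeletal lists together. They were not counted with those tubulins summed. DESeq2 called 2077 genes higher and 1621 lower, with 1996 adjusted p-values not given, against 2601 and 2316 with edgeR. With no filter on low counts 2088 and 2251 of 48367 genes were called. The GC and length offset, chosen after seeing the data, gave 3091 higher and 1918 lower, so that 61.7% of called genes were higher, and 31 and 38 genes of the lists. Over fits that leave out 1 library each, 2111 to 2634 genes were higher and 1888 to 2126 lower over all genes, 4 to 6 and 3 to 3 of the 9, and 23 to 27 and 39 to 43 of the lists. No log2 fold change of a named gene that was past the threshold reversed its sign. Of 1215 values for 81 named genes under the alternatives, 1151 stayed on their side of the threshold, 47 lost the call and 17 gained it. Deviations of same-numbered libraries correlated by 0.0404, 0.0595 and -0.0176, and not every library correlated best with its own number. Deviations from means of 3 libraries also hold counting noise, so these weak values cannot tell whether the numbers pair the samples. With the replicate number as a block, 2649 genes were higher and 2337 lower, 5 and 3 of the 9 genes, Stmn1 being the one gained, and 27 and 47 of the lists. Stmn1 also passed with a filter of 1 CPM in 3 libraries, without budesonide replicate 2 and without untreated replicate 1. At 3 reads per library, 0.422 to 0.552 CPM, differences in the lowest genes were not detectable at this depth.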
